A study of Homo sapiens with 156 samples.

Results

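Clustered histone genes are the gene copies, most of them in 1 stretch of chromosome 6, from which proliferating cells make the bulk of their histones. The members were all protein-coding genes of the GENCODE 29 annotation whose symbol starts with HIST1H, HIST2H, HIST3H or HIST4H, and there were 71 of them. The expression tables hold 59939 identifiers. They comprise 6 genes for linker histone H1, 17 for H2A, 18 for H2B, 15 for H3 and 15 for H4. Of these, 55 lie at chr6:25726132-27893843 (GRCh38), 15 on chromosome 1 and 1 on chromosome 12. Values were found there for 70 members, and HIST2H3A was not analysed here. A member was tested in a cell line when its FPKM (fragments per kilobase of transcript, scaled to the library's size) reached 1 in at least 2 libraries of that line, which held for 68 members in MV411, 68 in THP1 and 67 in NOMO1.

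RNA came from MV411, THP1 and NOMO1, established human acute myeloid leukaemia lines that carry a rearranged KMT2A gene. Cells received DMSO as the solvent control, or GSK032 (GSK3685032, an inhibitor of the maintenance DNA methyltransferase DNMT1), or DAC (decitabine, a cytidine analogue that is built into DNA and traps DNA methyltransferases), or GSK862 (GSK3484862, a further DNMT1 inhibitor), or GSK477 (GSK3510477). DMSO was sampled at days 1, 2, 4 and 6. Cells with 400 nM GSK032 or DAC were taken at days 1, 2, 4 and 6, and cells with 3.2, 16, 80, 2000 or 10000 nM of either at day 4. GSK862 (1000 nM) and GSK477 (10000 nM) were sampled at days 2 and 4. Each of the 26 groups per line held 2 libraries, 156 in all. Each line stands for a single leukaemia, and no test was made between lines. The labels do not say whether both libraries of a group are separate cultures, and the spread behind each p-value may therefore be technical.

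The files hold FPKM without counts, and low values were whole multiples of a unit (within 0.15) for only 57.9 to 78.5% of values, so the depth of each library was not recovered and no counting interval is given. FPKM sums per library differed, from 1260 to 3070 in units of 1000 FPKM, and 5 structural RNAs made up 29.6 to 52.6% of them. In THP1 at day 4 this share was 40.34 and 41.64% in DMSO and 52.64% in both 400 nM DAC libraries. In MV411 it was 42.55 and 37.28% against 44.96 and 48.71%, and in NOMO1 37.85 and 38.79% against 37.79 and 42.87%. The main fits did not adjust for these shares. The blood marker genes PTPRC, CD33 and SPI1 stood at 31.1 to 128 FPKM over all DMSO libraries. The epithelial markers EPCAM and KRT19 stayed at or below 1.54 FPKM in DMSO. The fibroblast gene COL1A1 was at or below 0.672 FPKM in DMSO and reached 39.6 FPKM in a treated NOMO1 library. PECAM1, which endothelial and also myeloid cells express, was at 21.1 to 187 FPKM in DMSO.

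Core histones H2A, H2B, H3 and H4 form the octamer around which DNA is wrapped, and H1 binds the linker DNA between octamers. Replication-linked histone genes are switched on at the entry into S phase, and their messenger RNAs end in a conserved stem-loop instead of a poly(A) tail. The stem-loop is bound by SLBP, which directs the cut at the RNA's end and its decay when DNA synthesis stops. A few clustered genes are known chiefly from the testis: HIST1H1T encodes the H1 of spermatocytes, HIST1H2AA and HIST1H2BA encode testis H2A and H2B, and HIST3H3 encodes testis H3. Promoters of many testis genes are known to be methylated in somatic cells. The 4 testis types are described against the other 66 measured members, which are called replication-linked below, although a few of them are known to have polyadenylated or low-level transcripts.

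The first sequences are the stem-loops that mark these transcripts, shown for members whose annotated transcripts reach far enough to hold them. Each run is in DNA letters, 5′ to 3′ on the gene's strand, from GENCODE 29 on GRCh38. The capitals mark the 16 bases that match the histone stem-loop motif. The sites lie at chr6:27824454-27824479 (plus strand), chr6:26184205-26184230 (plus strand), chr1:228424848-228424873 (minus strand) and chr6:27133510-27133535 (plus strand).
HIST1H4J: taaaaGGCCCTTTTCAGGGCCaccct
HIST1H2BE: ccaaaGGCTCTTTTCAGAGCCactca
HIST3H3: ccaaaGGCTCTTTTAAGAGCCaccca
HIST1H2AG: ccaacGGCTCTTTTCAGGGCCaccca
The stem-loop was found in annotated transcripts of 31 of the 71 members, beginning 23 to 68 bases after the stop codon. For 35 members the annotated transcripts stop at the stop codon, so the site could not be looked for. Of the 35 members with at least 50 annotated bases after the stop codon, 30 held a match. HIST1H2BE shares its 16 letters with 16 further members, and HIST1H4J with 4 further H4 genes. HIST3H3, a testis type, has the same 16 letters as HIST1H2BC, HIST1H2BD, HIST1H2BF and HIST1H3G. HIST1H2AG is the only member with its 16 letters. HIST1H1T, HIST1H1E, HIST1H4C, HIST1H3E and HIST1H2BJ had at least 50 such bases and no match to these letters. For HIST1H1T, HIST1H1E and HIST1H4C only 51, 57 and 51 bases are annotated, so a site could be cut off and its absence is not shown.

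The promoter stretches below run from 190 bases before to 1 base before the start site, 5′ to 3′ on the gene's strand, and come from RefSeq's table on GRCh38.p14. They are shown for the testis types HIST1H1T and HIST1H2BA, for H1 genes of high and low level (HIST1H1E, HIST1H1A), for HIST1H2BB and HIST1H4F, which were called in opposite directions in MV411 and NOMO1, and for HIST1H4L, an H4 gene that fell strongly. Capitals mark the TATA box (TATAAA), the box named CCAAT after its letters, the octamer ATTTGCAT, the H1 element AAACACA and the H4 element GGTCCG on either strand. The stretches lie at chr6:26108136-26108325 (minus), chr6:26156139-26156328 (plus), chr6:26017788-26017977 (minus), chr6:25726587-25726776 (plus), chr6:26043714-26043903 (minus), chr6:26240203-26240392 (plus) and chr6:27873535-27873724 (minus).
HIST1H1T: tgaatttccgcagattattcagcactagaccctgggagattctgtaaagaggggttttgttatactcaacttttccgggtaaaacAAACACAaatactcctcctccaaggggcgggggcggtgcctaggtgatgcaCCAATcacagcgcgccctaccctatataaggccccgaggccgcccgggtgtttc
HIST1H1E: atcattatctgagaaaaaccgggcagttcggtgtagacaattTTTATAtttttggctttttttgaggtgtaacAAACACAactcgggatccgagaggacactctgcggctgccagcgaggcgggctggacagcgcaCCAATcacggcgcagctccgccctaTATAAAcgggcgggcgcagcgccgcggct
HIST1H1A: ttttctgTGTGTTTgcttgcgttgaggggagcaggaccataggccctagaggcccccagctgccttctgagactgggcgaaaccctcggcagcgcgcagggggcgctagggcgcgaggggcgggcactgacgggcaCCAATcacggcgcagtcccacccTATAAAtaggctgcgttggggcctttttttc
HIST1H2BA: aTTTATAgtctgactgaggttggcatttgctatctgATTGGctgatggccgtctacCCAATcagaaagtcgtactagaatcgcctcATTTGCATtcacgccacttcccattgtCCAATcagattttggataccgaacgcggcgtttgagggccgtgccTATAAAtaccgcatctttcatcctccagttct
HIST1H2BB: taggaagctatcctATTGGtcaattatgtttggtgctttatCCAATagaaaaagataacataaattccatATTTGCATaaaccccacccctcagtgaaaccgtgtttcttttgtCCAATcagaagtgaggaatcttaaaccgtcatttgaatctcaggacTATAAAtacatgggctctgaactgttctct
HIST1H4F: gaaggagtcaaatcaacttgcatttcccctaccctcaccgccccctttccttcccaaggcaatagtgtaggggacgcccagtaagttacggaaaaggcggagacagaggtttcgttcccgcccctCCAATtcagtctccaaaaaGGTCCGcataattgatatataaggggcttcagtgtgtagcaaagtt
HIST1H4L: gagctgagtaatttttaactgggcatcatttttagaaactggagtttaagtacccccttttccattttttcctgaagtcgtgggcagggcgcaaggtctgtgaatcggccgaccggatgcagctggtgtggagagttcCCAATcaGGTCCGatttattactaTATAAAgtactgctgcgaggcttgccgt
The testis gene HIST1H1T carries the same pair of elements as the replication-linked H1 genes: in HIST1H1T, HIST1H1E and HIST1H1A a CCAAT begins 54 bases before the start, and AAACACA begins 105, 117 and 183 bases before it, in HIST1H1A on the other strand. HIST1H2BA, the testis H2B, likewise holds the octamer found in HIST1H2BB, 104 and 120 bases before the start. In HIST1H4F and HIST1H4L the H4 element begins 46 and 45 bases before the start. Over windows of 300 bases, from 250 before to 50 after the start, 61 members were matched. AAACACA was in 6 of 6 H1 promoters against 5.64% of 35116 promoters of all genes. The octamer was in 11 of 14 H2A and 14 of 18 H2B promoters against 1.77%. GGTCCG was in 12 of 13 H4 promoters against 11.3%. CCAAT was in 51 of the 61 (83.6%) against 34.6%, but in only 3 of 13 H4 promoters (23.1%), HIST1H4F and HIST1H4L among them. TATAAA was in 40 of the 61 (65.6%) against 11.5%. The median number of CpG per window was 11 in members and 14 in all promoters. The observed over expected ratio of CpG had a median of 0.774 in members and 0.579 in all promoters. It was 0.756 in HIST1H1T, 0.464 in HIST1H4F and 0.268 in HIST1H2BB, the lowest of the members. These are descriptions of letters and not of binding.

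In DMSO, most members were among abundant transcripts in all 3 lines, with 58 members at a mean of 100 FPKM or more in MV411, 53 in THP1 and 54 in NOMO1 over 8 libraries each. Among H1 genes, HIST1H1B averaged 2637 FPKM in MV411, 1367 in THP1 and 2598 in NOMO1, and HIST1H1E 2066, 930 and 1858. Among H2A and H2B genes, HIST2H2AA3 averaged 2264, 2135 and 1337 FPKM and HIST1H2BH 1756, 937 and 1249 in the same order of lines. HIST1H3B, for H3, averaged 2910, 1298 and 2305 FPKM, and HIST1H4J, for H4, 6351, 2453 and 6139. HIST1H4J was the highest member in MV411 and NOMO1, while HIST2H4A was highest in THP1 at 3716 FPKM. HIST1H4K, with the same coding sequence as HIST1H4J, was listed at 0 in every library, so levels within that pair are uncertain. The same holds for HIST2H4A and HIST2H4B, which share a whole transcript, and for HIST2H2AA3 and HIST2H2AA4, which share a coding sequence.

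**Figure D1:**
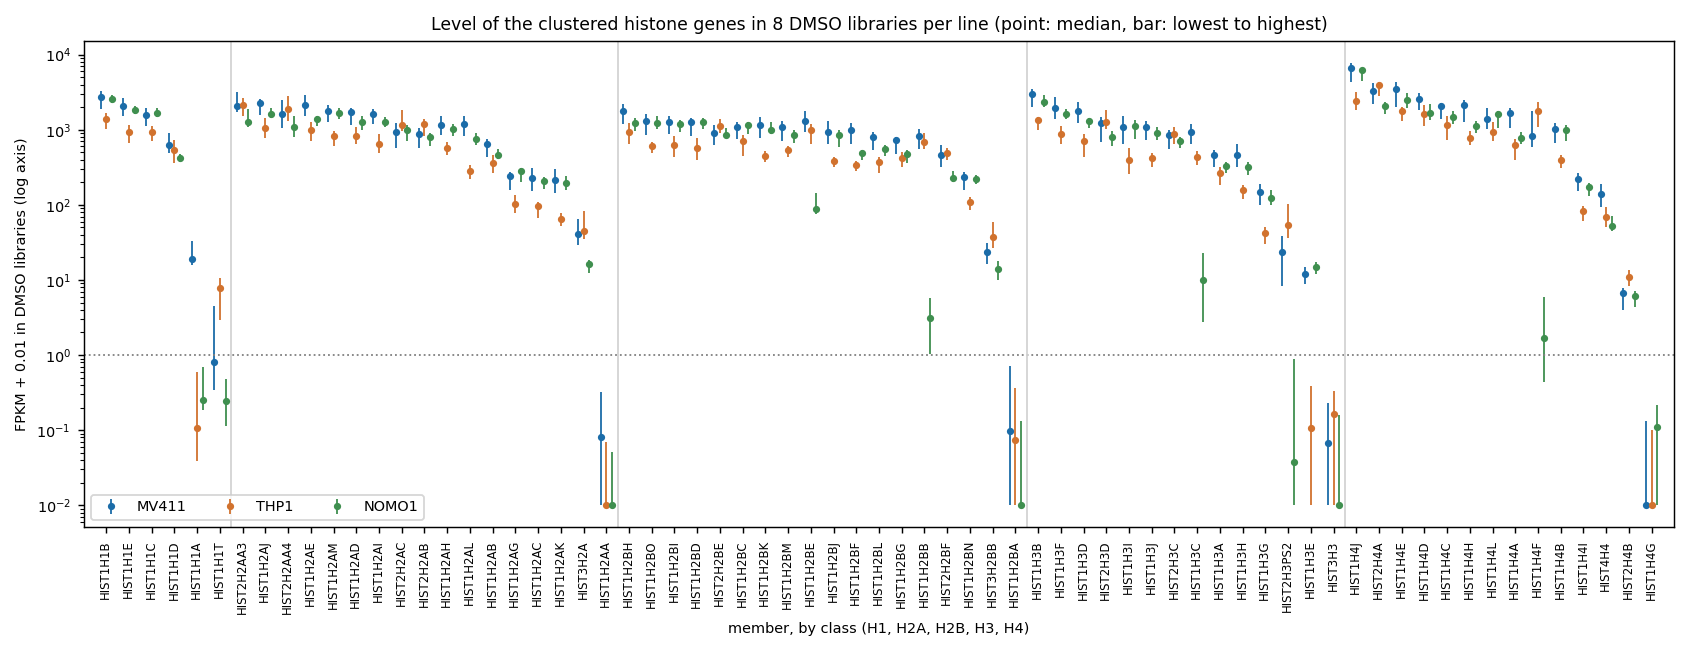
FPKM of each member in the 8 DMSO libraries of each line, with 0.01 added, on a log axis. Points are medians and bars run from the lowest to the highest library, members are grouped by class, and the dotted line marks an FPKM of 1. HIST1H2BB, HIST1H3C and HIST1H4F sit near or below 15 FPKM on average in NOMO1 and above 400 in the other lines, and the testis types HIST1H2AA, HIST1H2BA and HIST3H3 sit below 1 in all lines.

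A handful of members were low in some lines and high in others. HIST1H2BB averaged 803 FPKM in MV411 and 686 in THP1 against 3.35 in NOMO1. HIST1H3C averaged 939 and 425 against 10.4, and HIST1H4F 1005 and 1739 against 2.38. All 3 core histone genes were thus lower in the NOMO1 mean than in the other lines. HIST1H2BE, another H2B gene, averaged 1364, 967 and 102 FPKM in MV411, THP1 and NOMO1. The linker gene HIST1H1A averaged 21.9 FPKM in MV411, 0.186 in THP1 and 0.342 in NOMO1, and HIST1H3E averaged 12.2, 0.138 and 14.7. Of the testis types, HIST1H1T averaged 1.42, 7.46 and 0.274 FPKM, and HIST1H2AA, HIST1H2BA and HIST3H3 stayed at or below 0.243 on average in every line.

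The threshold for testing bears on the counts that follow. In MV411, HIST3H3, HIST1H2AA and HIST1H2BA passed it only through treated libraries. In THP1 this held for those 3 and for HIST1H1A and HIST1H3E, and in NOMO1 for those 3 and for HIST1H1A and HIST1H1T. A member that passed only in this way had to be higher in some treated group, and the filter thus sets part of any count of higher members. The members just outside were HIST1H4G, whose second highest library reached 0.309 FPKM in MV411, 0.396 in THP1 and 0.792 in NOMO1, and HIST2H3PS2 in NOMO1 at 0.572. The member just inside with the lowest second highest library was HIST3H3 in MV411 at 9.26 FPKM, and HIST1H2AA in THP1 at 10.05 and in NOMO1 at 6.55.

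At 400 nM and day 4, both compounds lowered nearly all replication-linked members in MV411, and DAC lowered most of them in NOMO1. GSK032 lowered none beyond the threshold in THP1 or NOMO1. At least 2 of the 4 testis types were called higher in each of the 6 comparisons. The filter sets part of that count, because HIST3H3, HIST1H2AA and HIST1H2BA, and in NOMO1 HIST1H1T too, passed it only through treated libraries. The filter also sets part of the counts of raised replication-linked members, through HIST1H1A in THP1 and NOMO1 and HIST1H3E in THP1. A member was called when limma gave an adjusted p under 0.05 over all genes tested in the line and the change on the log2(FPKM + 0.5) scale was at least 1. This scale understates changes of genes with low FPKM. Values after ± are standard errors from the fit. In MV411, GSK032 lowered 58 of 64 tested replication-linked members, where 2.76% of all 22007 genes were lower, and raised 2, where 6.55% were higher. Their median log2 change was −1.61, against 0.00 over all genes tested. DAC lowered 57 and raised 2 of the 64 in MV411, where 3.34% of all genes were lower and 6.86% higher, with a median of −1.57. In THP1, GSK032 lowered 0 and raised 2 of 64 (0.336% lower and 1.94% higher over all 23226 genes), with a median of −0.52. There 62 of all 68 members had an unadjusted p under 0.05. The share of all genes at that p is not given here or below, so such counts have no background to be read against. DAC in THP1 lowered 11 and raised 3 of 64 (1.93% lower and 6.23% higher over all genes), with a median of −0.81 against −0.03 over all genes. The THP1 count moved with scaling: with libraries scaled to equal sums, 43 members were lower and 7 higher for DAC, testis types included, against 11 and 7 without it. In NOMO1, GSK032 lowered 0 and raised 5 of 63 (0.376% lower and 2.55% higher over all 20763 genes), with a median of −0.08, and 10 of all 67 members had an unadjusted p under 0.05. DAC in NOMO1 lowered 50 and raised 5 of 63 (5.94% lower and 13.2% higher over all genes), with a median of −1.24. In bulk RNA, fewer cells that make histone transcripts and less of these transcripts per cell cannot be told apart.

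**Figure D2:**
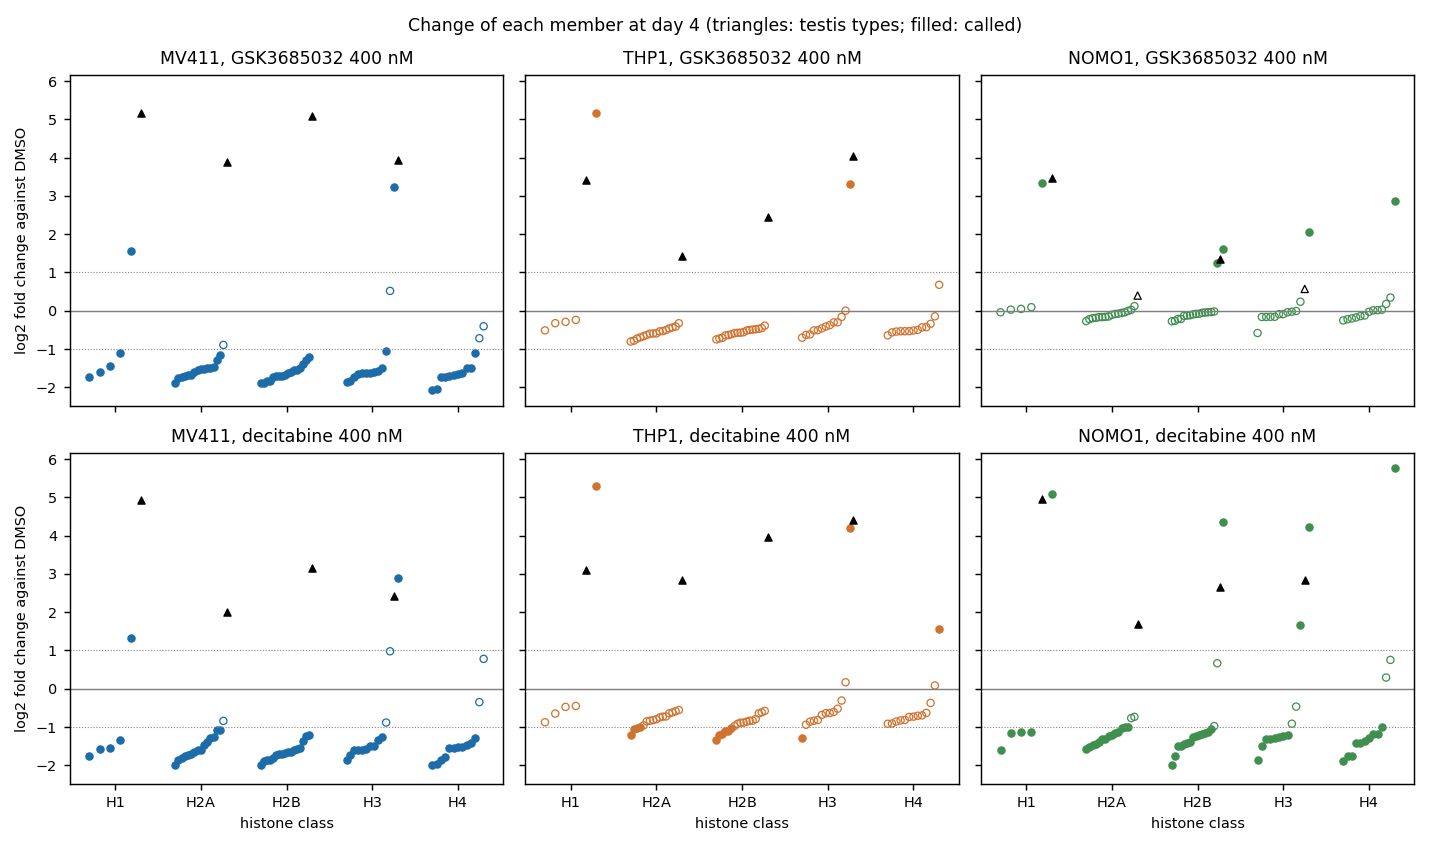
Log2 fold change of each tested member against DMSO at day 4 and 400 nM, by histone class, for GSK3685032 (GSK032, upper row) and decitabine (DAC, lower row) in each line. Circles are replication-linked members, triangles the testis types, filled symbols are called, and dotted lines mark −1 and 1. The circles lie mostly below −1 in both MV411 panels and in NOMO1 under decitabine, between −1 and 0 in THP1, and near 0 in NOMO1 under GSK3685032, with class medians for MV411 under GSK3685032 between −1.68 and −1.44.

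Medians are given by class, for linker histone genes and the 4 core classes. In MV411 under GSK032 the class medians were −1.44 for H1, −1.53 for H2A, −1.68 for H2B, −1.62 for H3 and −1.65 for H4. The lower members numbered 4 of 5 tested in H1, 15 of 16 in H2A, 17 of 17 in H2B, 11 of 13 in H3 and 11 of 13 in H4. In NOMO1 under DAC the medians ran from −1.27 for H4 to −1.13 for H1. In THP1 under DAC, H1 had the smallest median, −0.47, and H2B the largest, −0.89, with 6 of the 11 lower members in H2B and 4 in H2A. The difference between classes was not tested.

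HIST1H1B, the linker gene with the highest DMSO level over the lines, shows the pattern. In MV411 it stood at 2188 and 1874 FPKM in the 2 DMSO libraries of day 4, at 605 and 613 under GSK032 (−1.73 ± 0.16, limma adjusted p = 7.11e-10) and at 664 and 545 under DAC (−1.75 ± 0.16). Treated and DMSO libraries did not overlap. In THP1, HIST1H1B went from 1091 and 1014 FPKM to 742 and 732 under GSK032 (−0.51 ± 0.09, limma adjusted p = 3.79e-05) and to 597 and 551 under DAC (−0.88 ± 0.09). Neither passed the fold threshold, although the libraries did not overlap. In NOMO1 the DMSO libraries held 2400 and 2531 FPKM of HIST1H1B, the GSK032 libraries 2425 and 2364 (−0.04 ± 0.09, limma adjusted p = 0.872) and the DAC libraries 785 and 839 (−1.60 ± 0.09, limma adjusted p = 8.13e-15). The GSK032 libraries overlapped with DMSO there, and the DAC libraries lay below both.

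The core histone genes of high level moved likewise. HIST1H4J in MV411 went from 4866 and 4279 FPKM to 1697 and 1560 under GSK032 (−1.49 ± 0.23, limma adjusted p = 5.4e-06). In NOMO1, HIST1H4J went from 6050 and 6248 FPKM to 2278 and 2341 under DAC (−1.41 ± 0.17, limma adjusted p = 2.65e-08) and stood at 5715 and 5192 under GSK032 (−0.17 ± 0.17). HIST1H3B, an H3 gene, changed by −1.64 under GSK032 in MV411 and by −1.29 under DAC in NOMO1. HIST2H2AA3 and HIST1H2BH changed by −1.59 and −1.83 under GSK032 in MV411, and by −1.53 and −1.22 under DAC in NOMO1.

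The largest falls were in genes of middle to high level. In MV411 under GSK032, HIST1H4I went from 173 and 154 FPKM to 37.6 and 38.6 (−2.08 ± 0.22, limma adjusted p = 1.52e-08) and HIST1H4L from 1415 and 1087 to 282 and 325 (−2.03 ± 0.19). Both encode H4, and no treated library reached a DMSO library. HIST1H2AB, an H2A gene, followed at −1.89. Under DAC the H2B gene HIST1H2BM changed most in MV411, from 961 and 700 FPKM to 228 and 184 (−2.00 ± 0.25), in THP1, from 435 and 442 to 185 and 164 (−1.33 ± 0.12), and in NOMO1, from 761 and 719 to 197 and 172 (−2.00 ± 0.17). Its libraries did not overlap with DMSO in any of the 3 lines. HIST1H4I and HIST1H2AB were next in MV411 (−2.00 and −1.98), HIST1H3J and HIST1H2AB in THP1 (−1.30 and −1.21), and HIST1H4L and HIST1H3J in NOMO1 (−1.88 and −1.87).

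The members that missed the call in MV411 under GSK032 were HIST2H3PS2, HIST2H4B, HIST3H2A and HIST4H4, outside the chromosome 6 cluster, with HIST1H3A added under DAC. HIST4H4, the only member on chromosome 12, held 125 and 92.3 FPKM in DMSO at day 4, 70.5 and 60.1 under GSK032 (−0.72 ± 0.23, limma adjusted p = 0.0143) and 89.2 and 79.6 under DAC (−0.35 ± 0.23). HIST2H3PS2, a divergent H3 gene, held 8.31 and 17.4 FPKM in DMSO and 19.8 and 15.4 under GSK032 (0.52 ± 0.39), with overlapping libraries.

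HIST1H1T, the testis H1 gene, was higher under both compounds in every line at 400 nM and day 4. In MV411 it went from 0.756 and 0.948 FPKM in DMSO to 48.6 and 46.4 under GSK032 (5.15 ± 0.23, limma adjusted p = 1.38e-16) and to 45.6 and 36.8 under DAC (4.94 ± 0.23, limma adjusted p = 6.63e-16). In THP1, where HIST1H1T was already at 5.19 and 2.91 FPKM, it reached 51.2 and 42.9 under GSK032 (3.42 ± 0.31, limma adjusted p = 1.89e-09) and 39.2 and 36.1 under DAC (3.11 ± 0.31). Every treated library of these 2 lines lay above every DMSO library of day 4. In NOMO1 it went from 0.469 and 0.146 FPKM to 7.97 and 8.58 under GSK032 (3.47 ± 0.17, limma adjusted p = 1.56e-15) and to 24.4 and 23.4 under DAC (4.95 ± 0.17, limma adjusted p = 6.04e-20). The NOMO1 libraries of GSK032 lay between those of DMSO and of DAC. HIST1H1T stood higher in NOMO1 under GSK032 while 0 of 63 replication-linked members were called lower and a few were called higher. In NOMO1 HIST1H1T passed the filter only through treated libraries, so it had to be higher in some treated group.

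The testis genes for core histones were called higher under both compounds in every line, except HIST1H2AA and HIST3H3 in NOMO1 under GSK032. These genes passed the filter only through treated libraries in every line, so they had to be higher in some treated group. HIST1H2BA, the testis H2B, held 0.284 and 0.0821 FPKM in MV411 DMSO, 27.9 and 18.2 under GSK032 (5.09 ± 0.33, limma adjusted p = 3.78e-13) and 5.46 and 5.51 under DAC (3.15 ± 0.33). HIST3H3, the testis H3, held 0.0911 and 0.205 FPKM in THP1 DMSO, 12.1 and 8.55 under GSK032 (4.05 ± 0.38, limma adjusted p = 3.57e-09) and 12.7 and 13.7 under DAC (4.41 ± 0.38). No DMSO library of day 4 reached a treated one for these genes. In NOMO1 under GSK032, HIST3H3 held 0.393 and 0.158 FPKM against 0.0344 and 0 in DMSO (0.57 ± 0.27, limma adjusted p = 0.154), and HIST1H2AA, the testis H2A, held 0.252 and 0.123 against 0.0407 and 0 (0.40 ± 0.13). All these libraries are below 1 FPKM, and the differences are on the log2(FPKM + 0.5) scale. Under DAC in NOMO1, HIST3H3 reached 3.09 and 3.33 FPKM (2.84 ± 0.27) and HIST1H2AA 1.202 and 1.14 (1.68 ± 0.13).

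HIST1H1A and HIST1H3E, a linker and an H3 gene of the chromosome 6 cluster that are not on the testis list, were higher as well. HIST1H1A in THP1 and NOMO1, and HIST1H3E in THP1, passed the filter only through treated libraries. There they had to be higher in some treated group. HIST1H1A in THP1 went from 0.0758 and 0.0287 FPKM to 19.7 and 18.6 under GSK032 (5.16 ± 0.31, limma adjusted p = 4.94e-13) and to 22.7 and 19.6 under DAC (5.29 ± 0.31). In NOMO1, HIST1H1A went from 0.684 and 0.203 FPKM to 8.98 and 8.61 under GSK032 (3.35 ± 0.24) and to 32.7 and 28.8 under DAC (5.09 ± 0.24). In MV411, where HIST1H1A was already at 18.0 and 15.7 FPKM, it reached 48.6 and 53.0 under GSK032 (1.57 ± 0.15) and 45.8 and 39.6 under DAC (1.32 ± 0.15). The DMSO libraries of day 4 lay below the treated ones in all 3 lines. HIST1H3E went from 11.8 and 8.87 FPKM to 103 and 98.2 in MV411 under GSK032 (3.23 ± 0.29, limma adjusted p = 3.76e-10) and to 94.6 and 65.4 under DAC (2.88 ± 0.29). In THP1, HIST1H3E went from 0.0554 and 0 FPKM to 4.43 and 4.99 under GSK032 (3.30 ± 0.27) and to 9.98 and 8.39 under DAC (4.20 ± 0.27). NOMO1 split the compounds for HIST1H3E: its DMSO libraries held 13.6 and 15.7 FPKM, the GSK032 libraries 8.95 and 10.3 (−0.58 ± 0.16, limma adjusted p = 0.00927, under the fold threshold) and the DAC libraries 48.5 and 46.4 (1.66 ± 0.16, limma adjusted p = 4.26e-10). HIST2H4B, an H4 gene of chromosome 1 whose reads may be split with HIST2H4A, was called higher in THP1 under DAC, from 9.23 and 8.26 FPKM to 26.4 and 27.0 (1.56 ± 0.16).

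In NOMO1, 4 core histone genes of the chromosome 6 cluster were called higher under GSK032, 3 of them under DAC too, while the same genes were lower or uncalled in the other lines. HIST1H2BB in NOMO1 held 2.05 and 1.02 FPKM in DMSO at day 4, 5.78 and 5.34 under GSK032 at 400 nM (1.62 ± 0.29, limma adjusted p = 0.000141) and 45.1 and 35.3 under DAC (4.36 ± 0.29, limma adjusted p = 2.36e-13). HIST1H3C held 4.60 and 6.65, then 24.5 and 25.1 (2.07 ± 0.23) and 103 and 121 (4.22 ± 0.23). HIST1H4F held 0.967 and 0.674, then 9.90 and 8.25 (2.86 ± 0.55, limma adjusted p = 0.0003) and 73.2 and 69.7 (5.78 ± 0.55). For these H2B, H3 and H4 genes the DMSO, GSK032 and DAC libraries formed 3 ranges without overlap. HIST1H2BE held 75.2 and 75.8 FPKM in DMSO, 185 and 173 under GSK032 (1.24 ± 0.17) and 128 and 113 under DAC (0.67 ± 0.17, under the fold threshold). In MV411 the 4 genes were called lower under both compounds: by −1.71 and −1.80 for HIST1H2BB (GSK032, then DAC), −1.66 and −1.50 for HIST1H3C, −1.09 and −1.30 for HIST1H4F and −1.74 and −1.72 for HIST1H2BE. In THP1, HIST1H2BB and HIST1H2BE were called lower under DAC, by −1.10 and −1.02, and HIST1H3C and HIST1H4F changed by −0.82 and −0.73. Lines were fitted apart, so the difference between them was not tested.

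**Figure D3:**
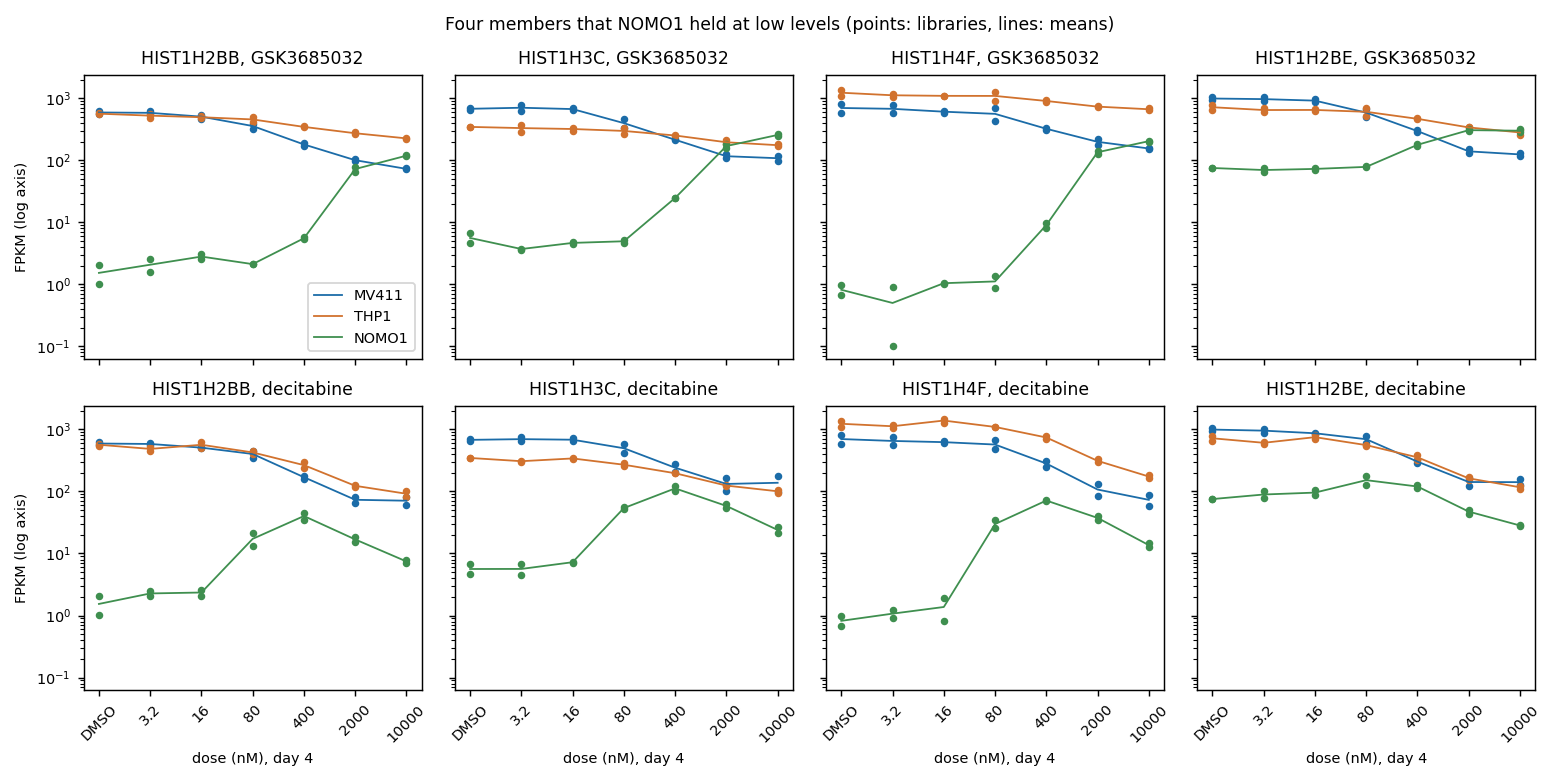
FPKM on a log axis of HIST1H2BB, HIST1H3C, HIST1H4F and HIST1H2BE against dose at day 4, for GSK3685032 (GSK032, upper row) and decitabine (DAC, lower row). Points are libraries and lines join group means, by cell line. In MV411 and THP1 the 10000 nM libraries lie below the DMSO libraries for all 4 genes, while in NOMO1 HIST1H2BB climbs from 2.05 and 1.02 FPKM in DMSO to 123 and 116 at 10000 nM GSK3685032, and under decitabine is highest at 400 nM.

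Over dose, these NOMO1 genes followed different courses under the 2 compounds. Under GSK032 at 10000 nM, HIST1H2BB reached 123 and 116 FPKM (5.93 ± 0.29), HIST1H3C 243 and 272 (5.42 ± 0.23) and HIST1H4F 200 and 209 (7.29 ± 0.55). At 80 nM GSK032 they stood at 2.12 and 2.14, 4.70 and 5.24, and 1.37 and 0.870 FPKM, with adjusted p of 0.969, 1 and 1 by limma. Under DAC these 3 genes were highest at 400 nM among 80, 400, 2000 and 10000 nM: at 80 nM HIST1H4F held 34.2 and 25.5 FPKM, at 2000 nM 40.4 and 34.6, and at 10000 nM 12.8 and 14.5 (3.43 ± 0.55). HIST1H2BE at 10000 nM was higher under GSK032, at 320 and 283 FPKM (1.99 ± 0.17), and lower under DAC, at 27.3 and 29.2 (−1.40 ± 0.17, limma adjusted p = 3.1e-08), against 75.2 and 75.8 in DMSO. The 2 compounds thus moved HIST1H2BE in opposite directions at that dose, with no overlap between groups.

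The summed FPKM of the 66 measured replication-linked members shows the dose dependence of the whole group. In MV411 it was 64730 and 54940 in the DMSO libraries of day 4, 19880 and 19700 at 400 nM GSK032, 21780 and 18210 at 400 nM DAC, 9918 and 9133 at 10000 nM GSK032 and 10710 and 7246 at 10000 nM DAC. In THP1 the DMSO libraries summed to 38510 and 35730, those of 10000 nM GSK032 to 20510 and 19260 and those of 10000 nM DAC to 9660 and 9401. In NOMO1 the sums were 57000 and 59490 in DMSO, 44450 and 43660 at 10000 nM GSK032 and 10870 and 11330 at 10000 nM DAC. No treated library named here reached a DMSO library of its line, and the 2 compounds overlapped in MV411 only. These sums weigh the abundant members most and were not tested.

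**Figure D4:**
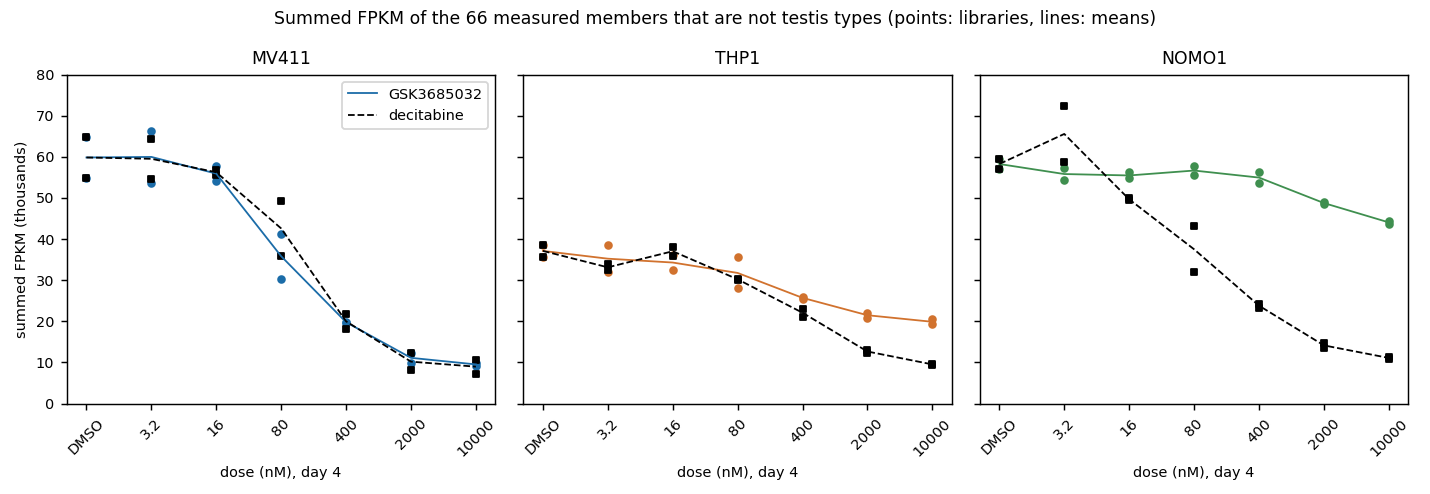
Summed FPKM, in units of 1000, of the 66 measured members that are not testis types, by dose at day 4. Points are libraries and lines join the means of 2 libraries, with GSK3685032 (GSK032) solid and decitabine (DAC) dashed. The compounds trace nearly the same curve in MV411, while in NOMO1 the GSK3685032 libraries end at 44450 and 43660 and the decitabine libraries at 10870 and 11330.

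Counts of lower members were larger at 10000 nM than at 80 nM in each line and compound except NOMO1 under GSK032, where they were 0 at each of the doses given here. At 80 nM GSK032, MV411 had 1 replication-linked member lower (0.345% of all genes) and 3 higher (2.57%), THP1 0 (0.0172%) and 1 (0.0904%), and NOMO1 0 (0.0144%) and 0 (0.0385%). At 80 nM DAC, MV411 had 0 lower (0.713%) and 2 higher (1.74%), THP1 0 (0.336%) and 2 (1.74%), and NOMO1 5 (2.41%) and 4 (6.51%). HIST1H1A and HIST1H3E were among the higher members, with HIST1H2BB, HIST1H3C and HIST1H4F beside HIST1H1A in NOMO1 under DAC. At 2000 nM GSK032, MV411 had 59 lower (6.01%) and 1 higher (8.87%), THP1 10 (1.47%) and 3 (3.63%), and NOMO1 0 (1.08%) and 6 (6.09%). At 2000 nM DAC, MV411 had 58 lower (9.28%) and 2 higher (10.0%), THP1 58 (4.61%) and 3 (9.92%), and NOMO1 54 (7.88%) and 6 (15.4%). DAC at that dose lowered at least 54 members in each line.

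At 10000 nM GSK032, MV411 had 60 lower (7.68% of all genes) and 1 higher (10.0%), THP1 20 (2.75%) and 3 (4.94%), and NOMO1 0 (3.21%) and 6 (9.21%). The share of higher members in NOMO1 was near that of all genes. The medians were −2.72, −0.96 and −0.46, and by limma 53 of all 67 NOMO1 members had an unadjusted p under 0.05. At 10000 nM DAC, MV411 had 59 lower (12.5%) and 1 higher (10.7%), THP1 59 (5.49%) and 3 (11.1%), and NOMO1 55 (9.43%) and 5 (16.1%), with medians of −2.70, −1.92 and −2.29. HIST2H4B was the 1 higher member in MV411 under DAC, and HIST1H3E that under GSK032.

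The trend over the 6 doses of day 4 was also tested, as the log2 change that a straight line gives between 3.2 and 10000 nM. Under GSK032 the trend was downward for 60 replication-linked members in MV411 (9.52% of all genes) and upward for 1 (11.6%), for 27 (3.97%) and 3 (5.94%) in THP1, and for 0 (3.60%) and 6 (9.54%) in NOMO1. The upward share in NOMO1 was near that of all genes. The THP1 count depended on scaling and on 1 set of libraries: it was 51 lower and 7 higher of all members with libraries scaled to equal sums, and 11 lower and 7 higher without the second GSK032 library of each dose. Under DAC it was downward for 59 (15.3%) and upward for 1 (14.5%) in MV411, for 58 (8.27%) and 3 (12.5%) in THP1, and for 55 (12.0%) and 6 (18.0%) in NOMO1. HIST1H4L had the steepest fall in MV411, at −4.12 ± 0.16 under GSK032 and −4.62 ± 0.16 under DAC. In THP1, HIST1H2AB changed by −1.39 ± 0.08 over the doses of GSK032 and HIST1H2BM by −3.17 ± 0.10 over those of DAC. In NOMO1, HIST1H2BM changed by −4.14 ± 0.15 over the doses of DAC. The steepest rises were HIST1H2BA in MV411 (5.84 ± 0.28), HIST3H3 in THP1 (6.93 ± 0.32) and HIST1H4F in NOMO1 (8.71 ± 0.47), all under GSK032. HIST1H2BA in MV411 and HIST3H3 in THP1 passed the filter only through treated libraries, which sets part of such rises.

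HIST1H1T did not follow dose in a straight course under DAC. In MV411 it held 25.2 and 23.8 FPKM at 80 nM DAC, 15.0 and 12.0 at 2000 nM and 6.10 and 5.62 at 10000 nM (2.24 ± 0.23), below the 400 nM libraries given above. In THP1 the HIST1H1T libraries at 10000 nM DAC held 5.71 and 5.93 FPKM, against 5.19 and 2.91 in DMSO (0.52 ± 0.31, limma adjusted p = 0.17). In NOMO1 it held 5.41 and 5.17 FPKM at 10000 nM DAC (2.87 ± 0.17). Under GSK032 at 10000 nM, HIST1H1T held 29.8 and 26.7 FPKM in MV411 (4.41 ± 0.23), while THP1 held 49.8 and 43.8 (3.42 ± 0.31) and NOMO1 held 40.3 and 39.1 (5.67 ± 0.17). At 16 nM GSK032, MV411 held 0.641 and 0.534 FPKM of HIST1H1T. At 80 nM GSK032 it was called higher in MV411, at 37.9 and 32.9 FPKM, and in THP1, at 13.4 and 9.15, while NOMO1 held 0.213 and 0.215.

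Over time at 400 nM in MV411, HIST1H1T was called higher from day 1, when at most 1 of 64 replication-linked members was called lower. At day 1 in MV411, HIST1H1T held 4.72 and 8.03 FPKM under GSK032 (2.72 ± 0.23, limma adjusted p = 1.87e-08) and 4.55 and 8.22 under DAC, against 0.360 and 0.686 in DMSO. At day 2 it held 61.3 and 79.6 FPKM under GSK032 (6.07 ± 0.23), above its day 4 libraries, and 40.6 and 50.7 under DAC (5.45 ± 0.23). At day 1 GSK032 lowered 0 replication-linked members in MV411 (0% of all genes), THP1 (0.00861%) and NOMO1 (0.00963%), and raised 1 (0.136%), 0 (0.0129%) and 0 (0.0241%). At day 2 it lowered 0 in MV411 (0.0818%), THP1 (0.0474%) and NOMO1 (0.0433%), and raised 2 (1.73%), 2 (0.336%) and 1 (0.352%). The raised members were HIST1H1A and HIST1H3E, and medians lay between −0.20 and 0.03. DAC at day 1 lowered 1 in MV411, HIST3H2BB (0.0545%), 0 in THP1 (0.0387%) and 0 in NOMO1 (0.0289%), and raised 1 (0.404%), 1 (0.116%) and 0 (0.380%). At day 2 DAC lowered 1 in MV411 (0.273%), 0 in THP1 (0.112%) and 7 in NOMO1 (0.361%), and raised 2 (2.46%), 2 (1.15%) and 4 (3.55%).

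By limma, 6, 1 and 2 of all members in MV411, THP1 and NOMO1 had an unadjusted p under 0.05 at day 1 under GSK032, and 9, 6 and 6 at day 2. Under DAC at day 1 those numbers were 59, 8 and 42, with medians of the replication-linked members of −0.59, 0.05 and −0.35, and 60 of the 64 in MV411 were below DMSO by any amount. By day 6, GSK032 had lowered 59 in MV411 (4.23% of all genes) and raised 1 (8.22%), with 0 (0.788%) and 2 (3.29%) in THP1 and 0 (0.987%) and 5 (4.25%) in NOMO1. The medians were −2.13, −0.79 and −0.23. DAC had lowered 59 (3.90%) and raised 1 (7.03%) in MV411, with 59 (3.84%) and 3 (7.26%) in THP1 and 54 (9.75%) and 4 (14.9%) in NOMO1. The medians were −2.41, −1.62 and −2.09.

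**Figure D5:**
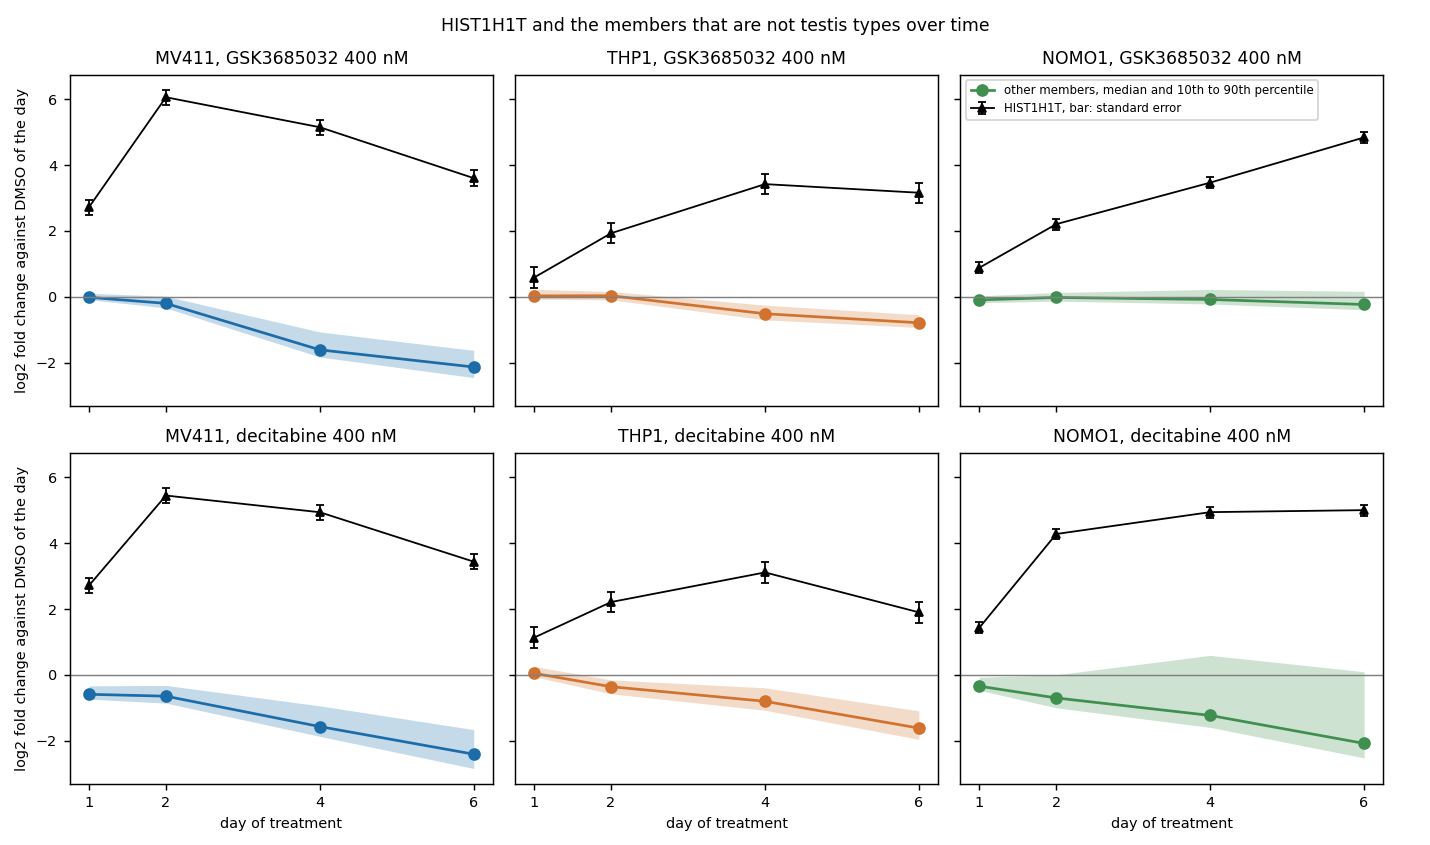
Log2 fold change against DMSO of the same day at 400 nM for HIST1H1T (triangles, bars are standard errors) and for the replication-linked members (circles are medians, bands run from the 10th to the 90th percentile), by line and compound. HIST1H1T in MV411 is highest at day 2, at 6.07 under GSK3685032 (GSK032) and 5.45 under decitabine (DAC), when the median of the replication-linked members is −0.20 and −0.65, and those medians reach −2.13 and −2.41 at day 6.

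The change at day 6 was set against that at day 1 in the same fit. Under GSK032, 59 of 64 replication-linked members in MV411 were lower by this measure (4.19% of all genes) and 1 higher (7.40%), while THP1 had 8 (0.586%) and 2 (2.73%), and NOMO1 0 (0.737%) and 5 (3.51%). The THP1 count rested on single libraries: of all members, 14 were called in either direction, and 8 to 29 when 1 library was left out, the highest without the first DMSO library of day 1 and the lowest without the second one or without the first DMSO library of day 6. Without the first GSK032 library of day 6 it was 22, and without the second 9. Under DAC the counts were 57 lower (3.07%) and 1 higher (5.35%) in MV411, for THP1 60 (2.52%) and 3 (6.04%), and for NOMO1 54 (8.03%) and 4 (12.5%). HIST1H1B shows the course in NOMO1: DAC libraries held 1976 and 1812 FPKM at day 1, 1785 and 1772 at day 2, 785 and 839 at day 4 and 380 and 402 at day 6, while DMSO libraries stayed between 2282 and 2923. Each later day lay below the one before. In NOMO1 HIST1H1T climbed through day 6 under GSK032, from 1.05 and 0.987 FPKM at day 1 to 3.81 and 2.77, 7.97 and 8.58, and 18.1 and 15.9 at days 2, 4 and 6. In THP1 HIST1H1T reached 92.4 and 79.5 FPKM at day 6 under GSK032, against 10.7 and 7.78 in DMSO.

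DMSO libraries of days 1 and 6 were compared in the same fits. Between days 1 and 6, HIST1H4F was higher in MV411 at day 6 (1.23 ± 0.24, limma adjusted p = 0.000619), from 650 and 870 FPKM to 1764 and 1772, as 1 of 64 replication-linked members (1.74% of all genes higher and 0.613% lower). HIST1H1T was higher too, from 0.360 and 0.686 to 4.49 and 2.96 FPKM (2.04 ± 0.23). In NOMO1 HIST1H3C was lower at day 6, from 14.9 and 13.2 to 2.77 and 4.05 FPKM (−1.91 ± 0.23), as 1 of 63 (0.0867% of all genes lower and 0.496% higher). In THP1 limma called 0 members (0.177% of all genes lower and 0.0904% higher), and 28 had an unadjusted p under 0.05. The DMSO sums of the replication-linked members were lowest at day 4 in MV411 and THP1. In MV411 they averaged 83660 FPKM at day 1, 81800 at day 2, 59830 at day 4 and 92200 at day 6. Changes at day 4 are thus against a lower control than those at day 6. As shares of each library's summed FPKM, the THP1 DMSO sums were 2.508 and 1.984% at day 1 and 2.479 and 2.314% at day 2. They were 2.53 and 2.443% at day 4 and 3.043 and 3.038% at day 6, so day 4 was not lowest by share there. The MV411 shares were 3.482 and 3.971% at day 1, and 3.333 and 3.41% at day 4.

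At day 4, GSK862 at 1000 nM lowered members in MV411, and limma called none for GSK477 at 10000 nM. GSK862 lowered 37 and raised 2 of 64 replication-linked members in MV411 (1.17% lower and 4.20% higher over all genes; median −1.05), 0 and 2 in THP1 (0.142% and 1.17%; median −0.32) and 0 and 5 in NOMO1 (0.467% and 2.41%; median 0.02). By limma, 46 of 68 members in THP1 and 11 of 67 in NOMO1 had an unadjusted p under 0.05. HIST1H1T held 53.4 and 57.4 FPKM in MV411 under GSK862 (5.37 ± 0.23), 44.6 and 42.2 in THP1 (3.32 ± 0.31) and 7.33 and 6.24 in NOMO1 (3.20 ± 0.17). The doses of GSK862 and GSK032 differ, so no test was made between them. With GSK477 at day 4, limma called 0 members in each line (0.445%, 0.0301% and 0.0385% of all genes lower, and 0.0318%, 0.00861% and 0.173% higher), and 11, 9 and 1 had an unadjusted p under 0.05. HIST1H1T held 0.417 and 0.549 FPKM in MV411 (−0.46 ± 0.23, limma adjusted p = 0.46), 1.78 and 1.39 in THP1 (−1.09 ± 0.31, limma adjusted p = 0.165) and 0.147 and 0.170 in NOMO1 (−0.27 ± 0.17, limma adjusted p = 0.714). In THP1 both GSK477 libraries lay below the DMSO libraries, at 5.19 and 2.91 FPKM.

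Against GSK477 at the matched dose of 10000 nM and day 4, GSK032 lowered 60 of 64 replication-linked members in MV411 (9.17% of all genes; median −2.96) and raised 1 (12.3%). It lowered 14 of 64 in THP1 (2.69%; median −0.85) and raised 3 (5.24%). It lowered 0 of 63 in NOMO1 (2.50%; median −0.51), where 54 of 67 members had an unadjusted p under 0.05 by limma. All 4 testis types were higher under GSK032 in each line. The filter sets part of that count, because most of them passed it only through treated libraries. In NOMO1 6 replication-linked members were higher (8.26% of all genes): HIST1H1A, HIST1H2BB, HIST1H3C, HIST1H2BE, HIST1H3E and HIST1H4F. Their share is near that of all genes, and HIST1H1A passed the filter in NOMO1 only through treated libraries.

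GSK032 and DAC were then compared directly at matched dose and day. At 400 nM and day 4 in MV411, limma called 1 of 64 replication-linked members lower under GSK032 than under DAC (1.23% of all genes), HIST2H4B at −1.19 ± 0.23, and 0 higher (0.682%). The testis genes HIST1H2BA (1.94 ± 0.33) and HIST1H2AA (1.90 ± 0.31) were higher under GSK032 there. For HIST1H1T the difference at 400 nM in MV411 was not called. In THP1, 0 of 64 were called in either direction (2.99% lower and 1.54% higher over all genes), 34 of 68 members had an unadjusted p under 0.05, and HIST1H2BA (−1.52 ± 0.30) and HIST1H2AA (−1.40 ± 0.29) were lower under GSK032. Without the first GSK032 library, 1 member was called in place of 2. In NOMO1, 47 of 63 were higher under GSK032 than under DAC (3.50% of all genes) and 5 lower (9.73%), and all 4 testis types were lower. HIST1H2BM differed by 1.95 ± 0.17 there, HIST1H4F by −2.91 ± 0.55 and HIST1H1T by −1.48 (limma adjusted p = 1.4e-08).

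At 10000 nM all 4 testis types were higher under GSK032 than under DAC in each line, and HIST1H1T differed by 2.17 in MV411, 2.90 in THP1 and 2.79 in NOMO1. Of the replication-linked members, 3 were higher and 1 lower under GSK032 in MV411 (5.68% and 5.83% of all genes), 33 higher and 0 lower in THP1 (4.07% and 7.01%) and 58 higher and 0 lower in NOMO1 (6.07% and 9.83%). In MV411 the 3 were HIST1H1A, HIST1H3E and HIST1H4F, and the share is near that of all genes.

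Genes that process or carry histones or their RNA were mostly uncalled at 400 nM and day 4. The lists were drawn up with earlier results of these data known. Of 15 genes for transcription and end processing of histone RNA, limma called 0 in every line under both compounds. Over all genes, 0.336 to 5.94% were lower and 1.94 to 13.2% higher in these comparisons. With only 15 genes, 0 is not far from most of these shares. SLBP, the stem-loop binding protein, changed by −0.92 in MV411 under GSK032 and by −0.95 under DAC, just short of the fold threshold. NPAT, the activator of histone transcription, changed by −0.49 and −0.50 there. Of 20 histone chaperones and importers, 4 were lower in MV411 under GSK032 (2.76% of all genes): CHAF1B (−1.35) of the assembly factor CAF-1, ASF1B (−1.06), HAT1 (−1.02) and RBBP7 (−1.03). Under DAC 7 were lower in MV411 (3.34% of all genes), 1 in THP1 (1.93%) and 3 in NOMO1 (5.94%), the last being SSRP1 (−1.43), IPO4 (−1.37) and ASF1A (−1.12). Of 11 tested histone variants outside the clusters, H2AFZ (−1.36), H2AFX (−1.18) and CENPA (−1.13) were lower (2.76% of all genes) and H1F0 (1.58), the H1 of resting cells, was higher (6.55%) in MV411 under GSK032. H1F0 was also higher in NOMO1 under GSK032 (1.156), and under DAC it changed by −0.30, −0.02 and −0.08 in MV411, THP1 and NOMO1.

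Genes of the S-phase machinery moved beside the histone genes. Of 20 such genes, 18 were lower in MV411 under GSK032 and 17 under DAC at 400 nM and day 4 (2.76% and 3.34% of all genes), with medians of −1.17 and −1.28. In THP1 0 and 3 were lower (0.336% and 1.93% of all genes), with medians of −0.65 and −0.72, and in NOMO1 0 and 2 (0.376% and 5.94%), with medians of −0.15 and −0.73. RRM2, a subunit of ribonucleotide reductase, changed by −1.58 in MV411 under GSK032, and the replication licensing gene MCM6 by −1.73 under DAC. In NOMO1 under DAC, where 50 of 63 replication-linked members were lower, the 2 lower genes of the list were MCM2 (−1.22) and GINS2 (−1.13). The part of this list's change in the fall of the histone genes was not tested.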

How the data were processed

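RNA sequencing libraries of MV411, THP1 and NOMO1 cells, 156 in all and 2 per group, were used as deposited. The authors' deposited tables give FPKM per gene for each library, made with Salmon 0.12.0 on hg38 per the submitters' processing notes. RNA selection and strand are not given in the sources used here, and either can change levels of histone RNA, which mostly lacks a poly(A) tail. FPKM values carry no read counts, so depth is unknown and no counting interval is given. Of 59939 gene identifiers, 56511 were found in GENCODE 29. Whether libraries of a group are separate cultures is not stated.

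Genes at 1 FPKM or more in at least 2 libraries of a line were tested with limma 3.58.1 (R 4.3.3) on log2(FPKM + 0.5). Each line was fitted apart over its 26 groups (26 residual degrees of freedom), with Benjamini-Hochberg adjustment over all genes tested. A call needed an adjusted p under 0.05 and a log2 fold change of at least 1 in size. Counts of members at an unadjusted p under 0.05 are given without the share of all genes at that p. Fold changes are on the log2(FPKM + 0.5) scale, with standard errors, and understate changes of low genes. The fit was tested on simulated data. The text names HIST1H1T, the members with the highest DMSO means of each class, those with the largest called rises and falls per comparison, those called in opposite directions, those nearest the filter, and up to 4 called or 2 uncalled genes of each list; other members are named where a count is small or a testis type is described, and were chosen after their values were seen. The authors' deposited fold change tables were not used here, because some column names repeat or name another line. The members and lists were chosen with earlier results of these data known. Alternatives were pseudocounts of 1 and 0.1, no filter, 2 rescalings of libraries, a replicate block and leaving out libraries. Libraries were left out 1 at a time in the groups of some comparisons. For the dose trends, 1 library of every dose was left out together.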

Additional observations from a re-analysis of the deposited data

Results flagged for a closer look

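The effect at day 6 differed from that at day 1 for the following named members, by the interaction term in limma at 400 nM (log2, day 6 minus day 1). In MV411 under GSK032 it was −2.62 for HIST1H1D, −2.61 for HIST1H3I and 1.61 for HIST1H3E. Under DAC it was −2.36 for HIST1H2BB, −2.34 for HIST1H1D and 1.64 for HIST1H3E. In THP1 under GSK032 it was 2.58 for HIST1H1T, −1.33 for HIST2H2AA4, −1.24 for HIST2H2AC, 5.46 for HIST1H1A and 3.58 for HIST1H3E. Under DAC it was −2.26 for HIST1H2AB, −2.10 for HIST1H2BB, 3.82 for HIST1H1A and 3.22 for HIST1H2BA. In NOMO1 under GSK032 it was 3.96 for HIST1H1T, 4.46 for HIST1H4F and 4.03 for HIST1H1A. Under DAC it was 3.58 for HIST1H1T, −2.49 for HIST1H2BM, −2.48 for HIST1H4L, 5.80 for HIST1H4F and 3.99 for HIST1H1A.

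Called changes at 400 nM and day 4 went in opposite directions in different lines for 4 genes, and the difference was not tested. HIST1H2BB changed by −1.71 in MV411 and 1.62 in NOMO1 under GSK032, and by −1.80 in MV411, −1.10 in THP1 and 4.36 in NOMO1 under DAC. HIST1H2BE changed by −1.74 in MV411 and 1.24 in NOMO1 under GSK032. HIST1H3C changed by −1.66 and 2.07 under GSK032 and by −1.50 and 4.22 under DAC, in MV411 and NOMO1. HIST1H4F changed by −1.09 and 2.86 under GSK032 and by −1.30 and 5.78 under DAC, in the same lines.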

How the results depend on the processing

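Of 178 counts of called members recomputed under other settings, 175 stayed within 1.5 times the reported count. Scaling libraries to equal sums gave 50 calls in THP1 under DAC at 400 nM and day 4 (43 lower and 7 higher) in place of 18, and 58 for the THP1 dose trend of GSK032 in place of 34. With the replicate number as a block, 1 member was called in THP1 under GSK477 at day 4 in place of 0, and no other count with the block moved beyond 1.5 times. With libraries left out, 125 of 132 counts stayed within 1.5 times. For these, 1 library was left out at a time, or 1 library of every dose together for the dose trends. The others were the day 6 minus day 1 count of GSK032 in THP1 (8 to 29), the THP1 dose trend of GSK032 (18 to 43) and the THP1 difference of GSK032 and DAC at 400 nM (1 to 3). HIST1H1T kept its direction and its side of the threshold in 60 of 60 recomputed values. Of 1800 values for other named members, 1766 did, 16 lost the call, 18 gained it and 0 reversed; the cause was not tested.

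Replicate numbers paired the libraries weakly at most. Same-numbered deviations correlated between −0.204 and 0.417 for MV411, for THP1 between −0.0122 and 0.22, for NOMO1 between −0.115 and 0.233. The medians were 0.0802, 0.081 and 0.0881 in that order. The correlation was over 0.1 for 101 of 276, 93 of 325 and 112 of 325 pairs of groups. The same number stands on both MV411 libraries of GSK862 and on both of GSK477 for day 4, whose comparisons thus have no block value. A comparison with the authors' deposited fold changes was not run, since their columns could not be tied to comparisons. Read depth is unknown, which limits levels below 1 FPKM most.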

Other observations

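Within single groups, a few libraries stood apart from their partner for members that are near 0 in DMSO. In THP1 at 16 nM GSK032 and day 4, the first library held 1.18 FPKM of HIST1H1A against 0.0608 in the second, 1.155 of HIST1H2BA against 0.125 and 2.36 of HIST3H3 against 0.165. In NOMO1 at 400 nM GSK032 and day 2, the first library held 10.9 FPKM of HIST1H4F against 2.06 in the second. These pairs were chosen after their values were seen.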
